A study of Mus musculus with 24 samples.

Results

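The DSS effect in caNrf2 transgenic colon wall was measured as the difference between 4 libraries of transgenic mice given dextran sulfate sodium (DSS) and 4 libraries of transgenic mice without it, 8 of the 24 messenger RNA libraries of the series. These 8 libraries were chosen by their titles alone. All mice were C57Bl/6. The transgenic mice carried VilCre, a Cre recombinase driven by the villin promoter of gut epithelium, and the CMVcaNrf2 transgene, a constitutively active form of the transcription factor NRF2. The control mice carried VilCre without the transgene, so Cre was present in both genotypes. The wall samples were 10 mm long and were taken about 10 to 20 mm from the rectum. Such pieces hold epithelium together with immune cells, connective tissue, vessels, nerves and muscle, in which the villin promoter is not active. The sources used here give no age, sex, DSS dose or length of treatment. Nothing says that the replicates were separate animals, so every p-value measures the spread between these libraries, part of which may be technical. In bulk tissue, more cells of a type and more RNA per cell cannot be told apart, and this holds for every difference described here.

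DSS is a sulfated polysaccharide that injures the colon lining when mice drink it, and the injury is followed by infiltration of myeloid cells and by repair of the crypts. NRF2, encoded by Nfe2l2, is normally bound and degraded through KEAP1. When it is active it turns on genes of glutathione synthesis, NADPH supply, quinone reduction and drug conjugation.

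Counts per gene were compared over 16074 genes, and levels are given as CPM, the read count of a gene scaled to a common TMM-adjusted library size, in the order of replicates 1, 2, 3 and 4. Total counts ran from 21493177 to 154336039 in the untreated and from 27500311 to 43318911 in the DSS libraries. As a check of the labels, Nfe2l2 (chr2:75675519-75704641 on mm10, the build of all gene positions here) was at 189.7, 148, 202 and 238 CPM without DSS and at 186, 166, 285 and 211 CPM with DSS. The groups overlapped, and the DSS difference did not pass the test (log2 fold change 0.12 ± 0.19 SE, adjusted p = 0.618). Both groups lay above untreated control wall, whose mean was 124 ± 19.5 CPM (SD, n = 4) and whose highest library was at 146 CPM. Control wall with DSS ran from 111 to 168 CPM, and transgenic DSS replicate 2 (166 CPM) lay within that range. The NRF2 target Gclc, the catalytic part of the enzyme that makes the glutathione precursor (mm10 chr9:77754535-77794489), was at 735, 104, 693 and 381 CPM without DSS and at 315, 529, 630.4 and 847 CPM with DSS. The library labelled transgenic untreated replicate 2 was thus the lowest of the 8 for this target, and its value lay within the range of untreated control wall (69.8 to 107 CPM). The same held for its Nqo1, at 21.4 CPM against 12.1 to 29.2 CPM in control wall. Its Slc7a11 (4.797 CPM) and Abcc2 (6.21 CPM) were above the highest untreated control libraries (4.44 and 4.32 CPM) but below the other 3 transgenic ones, and its Nfe2l2 (148 CPM) compared with 99.5 to 146 CPM in control wall. These target levels go against the label of that library, whose correctness was not tested. Other genes, picked after their values were seen, were close to the other untreated transgenic libraries. Its Per3 (53.5 CPM) was above untreated control wall (16.6 to 23.8 CPM). Its Vgll3 (1.87 CPM) and Nfil3 (2.47 CPM) were below it (4.53 to 4.82 and 6.93 to 18.03 CPM). The library is kept under its label here. The NRF2 target lists and the targets Gclc, Slc7a11, Nqo1, Txnrd1 and Abcc2 are also given without it. When it was left out, 4975 genes passed for DSS in transgenic wall. The tissue label was met by its markers: Cdh1, the adhesion molecule of epithelium, was at 1101, 1321, 1299 and 1562 CPM and Myh11, the myosin of smooth muscle, at 2091, 1841, 2376 and 2536 CPM in the untreated libraries. Along the first principal component of the 500 most variable genes (68.3% of variance) the untreated libraries lay between -33.6 and -31.1 and the DSS libraries between 22.4 and 39.3. The second component (13.4%) set the DSS libraries apart from each other, from 30.9 in replicate 1 to -21.3 in replicate 4.

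DSS changed the wall widely. Of the 16074 genes, 6626 passed edgeR's quasi-likelihood test at an adjusted p below 0.05 (41.2%), 3710 of them higher (23.1%) and 2916 lower (18.1%) with DSS. The change exceeded 1 on the log2 scale for 2334 of the higher and 911 of the lower genes. The 4 DSS and the 4 untreated libraries did not overlap in CPM for 5620 genes (35.0%). The median log2 fold change over all genes tested was 0.01. Leaving out 1 of the 8 libraries gave between 4975 and 7197 genes past the threshold. Each gene list below is read against these shares of all genes.

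**Figure D1:**
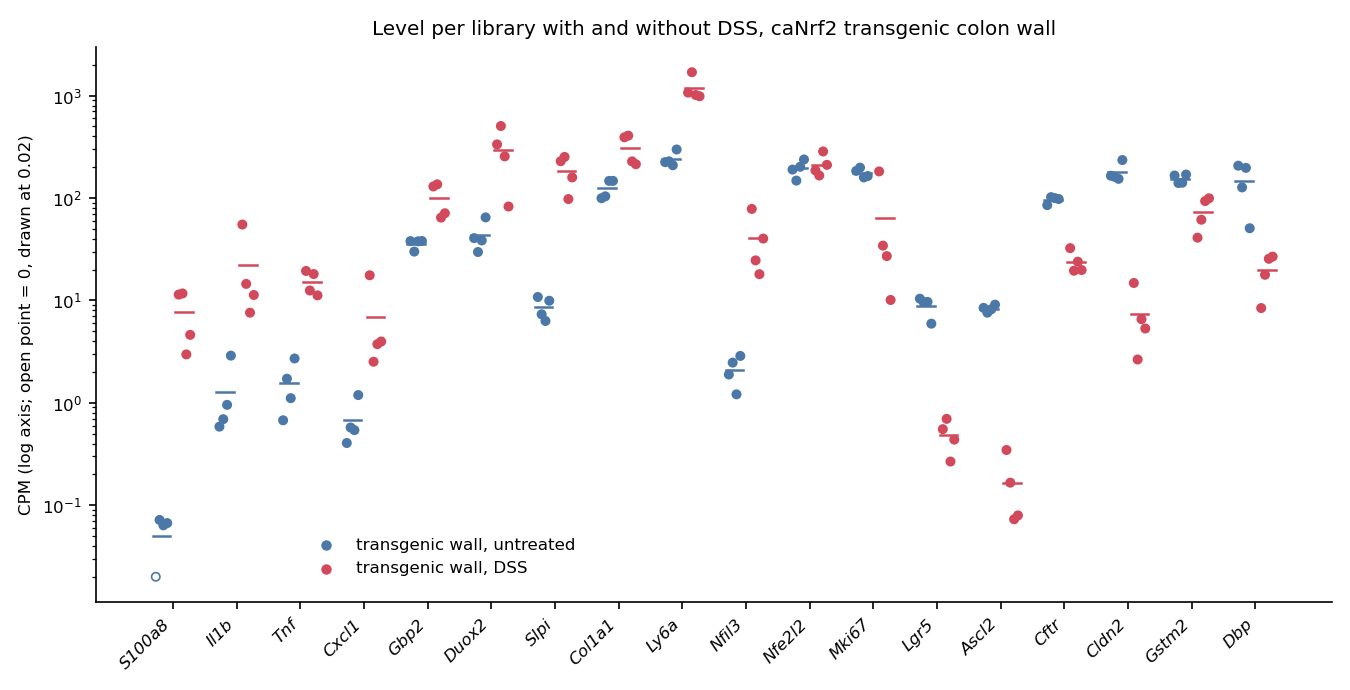
CPM on a log axis of 18 genes in the 4 untreated (blue) and 4 DSS (red) libraries of transgenic wall; each point is a library in the order of replicates 1 to 4, a bar is the mean, and an open point is a count of 0. The inflammatory genes at the left were higher in all 4 DSS libraries, Lgr5 and Ascl2 were lower in all 4, and Mki67 in DSS replicate 1 (182 CPM) lay at the untreated level.

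Of 14 neutrophil markers tested, 12 rose and none fell, with a median log2 fold change of 3.69. S100a8, a subunit of the calcium-binding antimicrobial protein calprotectin (mm10 chr3:90669071-90670034), was at 0, 0.0718, 0.0636 and 0.0669 CPM without DSS and at 11.4, 11.7, 2.97 and 4.61 CPM with DSS. Every DSS library lay above every untreated library, and DSS replicates 1 and 2 were the highest (log2 fold change 6.93 ± 0.77 SE, adjusted p = 3.84e-05). Its partner S100a9 was at 0.1799, 0.131, 0.0636 and 0.0836 CPM without DSS and at 15.4, 11.2, 4.74 and 7.75 CPM with DSS. It rose likewise without overlap (log2 fold change 6.41 ± 0.66 SE, adjusted p = 2.38e-05). Retnlg, a resistin-like gene of neutrophils, rose with a log2 fold change of 6.13 ± 0.87 SE, adjusted p = 0.000131. The genes of early neutrophil granules, Mpo and Elane, were under 0.1 CPM in all 8 libraries. The summed level of the list ran from 30.05 to 78.6 CPM in the DSS and from 8.997 to 11.8 CPM in the untreated libraries.

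Monocyte and macrophage markers rose in 21 of 24 tested, with none lower and a median log2 fold change of 1.2. Ccr2, the receptor that draws monocytes into tissue, was at 3.19, 2.51, 5.16 and 3.71 CPM without DSS and at 18.2, 17.6, 9.58 and 5.800 CPM with DSS. The groups did not overlap, and DSS replicate 4 lay closest to the untreated range (log2 fold change 1.82 ± 0.42 SE, adjusted p = 0.00317). Fcgr1, a high-affinity receptor for immunoglobulin G, rose with a log2 fold change of 2.14 ± 0.45 SE, adjusted p = 0.00168, and the scavenger receptor gene Marco with 3.83 ± 0.81 SE, adjusted p = 0.00189. Chi3l3, which encodes a chitinase-like protein of alternatively activated macrophages, was at 0.09000, 0.0261, 0 and 0.0501 CPM without DSS and at 5.07, 2.49, 1.26 and 1.79 CPM with DSS. It stood near 0 without DSS and above 1 CPM in every DSS library (log2 fold change 6.14 ± 0.96 SE, adjusted p = 0.000247). Of the monocyte and macrophage markers, 12 rose without DSS replicate 1.

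Of 20 T and cytotoxic cell markers, 7 rose and none fell, and the median log2 fold change was 0.73. The granule protease gene Gzmb rose (log2 fold change 2.48 ± 0.47 SE, adjusted p = 0.0008595), as did Ctla4, a brake on T cell activation (1.93 ± 0.52 SE, adjusted p = 0.00775), and the helper cell receptor gene Cd4 (1.42 ± 0.43 SE, adjusted p = 0.0155). The pan-T gene Cd3e did not pass (0.56 ± 0.38 SE, adjusted p = 0.245). Of 12 B and plasma cell markers none rose and 1 fell, which was Tnfrsf17, the plasma cell survival receptor BCMA. It was at 1.71, 0.698, 2.16 and 0.752 CPM without DSS and at 0.5304, 0.464, 0.195 and 0.437 CPM with DSS, with no overlap (log2 fold change -1.67 ± 0.46 SE, adjusted p = 0.00912). Of 9 mast cell and eosinophil markers 5 rose. Among them Hdc, which makes histamine, was at 0.405, 0.392, 0.127 and 0.201 CPM without DSS and at 6.295, 2.89, 1.702 and 2.42 CPM with DSS. Every DSS library exceeded every untreated one (log2 fold change 3.54 ± 0.48 SE, adjusted p = 0.000109). Of the B and plasma cell markers, 2 fell without DSS replicate 1. Summed B and plasma cell markers ran from 392 to 537 CPM with DSS and from 504 to 681 CPM without.

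Of 17 cytokine genes tested, 12 rose and none fell, with a median log2 fold change of 2.07. Il1b, a leading inflammatory cytokine (mm10 chr2:129364580-129371120), was at 0.585, 0.692, 0.955 and 2.89 CPM without DSS and at 55.1, 14.5, 7.59 and 11.3 CPM with DSS. DSS replicate 1 was far above the other DSS libraries, and no DSS library reached down to the untreated range (log2 fold change 4.07 ± 0.94 SE, adjusted p = 0.00315). Tnf was at 0.675, 1.72, 1.11 and 2.71 CPM without DSS and at 19.4, 12.5, 18.1 and 11.2 CPM with DSS. Here the 4 DSS libraries were close together and did not overlap with the untreated ones (log2 fold change 3.25 ± 0.36 SE, adjusted p = 3.84e-05). Il6, which drives STAT3 signalling, was at 0, 0.0261, 0.0318 and 0.0167 CPM without DSS and at 6.503, 0.464, 0.243 and 1.55 CPM with DSS. It was nearly absent without DSS and highest in DSS replicate 1 (log2 fold change 6.51 ± 1.68 SE, adjusted p = 0.00634). Il22, a cytokine of innate lymphoid cells that acts on epithelium, had no count in any untreated library and was at 4.93, 0.365, 0.219 and 0.278 CPM with DSS. The DSS mean was at least 10.4-fold higher than the level that 3 counts would give in the shallowest untreated library. That bound rested on DSS replicate 1, and without this library the mean was at least 2.06-fold higher. Lif, a relative of Il6, rose with a log2 fold change of 2.07 ± 0.50 SE, adjusted p = 0.00416.

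Of 26 chemokine genes 20 rose and 1 fell, with a median log2 fold change of 1.88. Cxcl1, which attracts neutrophils, was at 0.405, 0.574, 0.541 and 1.19 CPM without DSS and at 17.6, 2.52, 3.74 and 3.97 CPM with DSS. DSS replicate 1 stood out above the other 3, which were themselves all above the untreated range (log2 fold change 3.33 ± 0.81 SE, adjusted p = 0.004398). Cxcl2, a close relative, was at 0, 0.0522, 0 and 0.1504 CPM without DSS and at 11.3, 3.28, 2.36 and 1.83 CPM with DSS. It had the same order of groups and the same highest library (log2 fold change 6.17 ± 1.22 SE, adjusted p = 0.001203). Ccl2, the ligand of CCR2 on monocytes, rose with a log2 fold change of 4.40 ± 0.99 SE, adjusted p = 0.00277. Ccl8, a further monocyte attractant, was at 2.83, 2.604, 6.75 and 3.43 CPM without DSS and at 35.5, 39.1, 22.00 and 28.3 CPM with DSS. Its DSS values lay close together (log2 fold change 3.01 ± 0.41 SE, adjusted p = 0.000106). Ccl21a, made by lymphatic endothelium, rose with a log2 fold change of 2.34 ± 0.22 SE, adjusted p = 1.18e-05, and the stromal chemokine gene Cxcl12 with 1.64 ± 0.28 SE, adjusted p = 0.000508. The one chemokine gene that fell was Ccl25, an attractant of gut-homing lymphocytes (-0.78 ± 0.23 SE, adjusted p = 0.0133).

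The promoters of Cxcl1 and Cxcl2 are shown because both hold the same match to a kappaB-like motif, the kind of site that NF-kappaB proteins are known to bind. Each window holds the 150 bases before the RefSeq start site (GRCm38.p6), Cxcl1 at chr5:90891095-90891244 and Cxcl2 at chr5:90903749-90903898, both on the plus strand, 5′ to 3′, with the match in capitals.
Cxcl1: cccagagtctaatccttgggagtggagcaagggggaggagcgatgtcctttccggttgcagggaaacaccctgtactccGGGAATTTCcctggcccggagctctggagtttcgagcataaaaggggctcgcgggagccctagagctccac
Cxcl2: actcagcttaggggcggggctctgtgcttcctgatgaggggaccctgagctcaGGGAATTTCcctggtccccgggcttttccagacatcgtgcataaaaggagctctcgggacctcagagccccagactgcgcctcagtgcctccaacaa
The letters searched were GGGANTTTC, on both strands, in the 250 bases before the start. The matches began 71 bases before the start in Cxcl1 and 97 bases before it in Cxcl2. Of the 11271 tested genes with a RefSeq promoter, 113 held a match (1.003%), against 1.10% of the genes higher and 1.27% of those lower with DSS. Of the 19 chemokine genes with a promoter, 4 held one. A match is a description of letters and not a measured site.

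Among 18 prostaglandin and leukotriene genes 7 rose and 3 fell. Ptgs2, the inducible cyclooxygenase, was at 3.104, 3.31, 3.25 and 2.93 CPM without DSS and at 59.3, 9.62, 5.54 and 12.5 CPM with DSS. By far the highest was DSS replicate 1, and all 4 DSS libraries exceeded the untreated ones (log2 fold change 2.79 ± 1.02 SE, adjusted p = 0.0371). The call of Ptgs2 was lost without DSS replicate 1, or untreated replicate 1, 2, 3 or 4, at log2 fold changes of 1.5 to 2.82. The constitutive enzyme gene Ptgs1 did not pass (0.30 ± 0.25 SE, adjusted p = 0.3397). Ptgir, the prostacyclin receptor gene, rose (1.78 ± 0.33 SE, adjusted p = 0.000836). Ptger4, a receptor of prostaglandin E2, fell (-0.76 ± 0.19 SE, adjusted p = 0.00461), and so did Hpgd, the enzyme that degrades it (-0.86 ± 0.28 SE, adjusted p = 0.0214). The call of Hpgd was lost without DSS replicate 1 or 2, or untreated replicate 3, at log2 fold changes of -0.80 to -0.72. Of the prostaglandin and leukotriene genes, 2 rose without untreated replicate 2 or 4, and 3 rose without DSS replicate 1. Of the prostaglandin and leukotriene genes, 1 fell without untreated replicate 3.

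Interferon-gamma inducible GTPases, which act in cells against intracellular microbes, rose in 14 of 16 tested, with none lower and a median log2 fold change of 1.57. Gbp2 was at 37.97, 29.98, 37.8 and 38.03 CPM without DSS and at 129.8, 136, 64.4 and 71.03 CPM with DSS. Every DSS library lay above the untreated ones, and DSS replicates 1 and 2 were about level with each other and above replicates 3 and 4 (log2 fold change 1.48 ± 0.25 SE, adjusted p = 0.000374). Igtp was at 12.8, 11.6, 11.6 and 16.4 CPM without DSS and at 59.9, 30.1, 15.4 and 21.4 CPM with DSS. DSS replicate 3 fell inside the untreated range, so the groups overlapped (log2 fold change 1.28 ± 0.30 SE, adjusted p = 0.003699). Irgm2 was at 20.8, 17.6, 24.4 and 27.1 CPM without DSS and at 134, 64.6, 35.6 and 48.9 CPM with DSS. It did not overlap (log2 fold change 1.65 ± 0.33 SE, adjusted p = 0.00121). Iigp1 rose with a log2 fold change of 2.77 ± 0.51 SE, adjusted p = 0.000774. The summed level of the list ran from 236 to 713 CPM with DSS and from 166 to 212 CPM without, and DSS replicates 3 and 4 were the 2 lowest of the DSS libraries.

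The promoters of 3 of these GTPase genes are shown because each of the 9 GTPase genes with a RefSeq promoter held the same motif, an ISRE-like sequence of the kind bound by interferon regulatory factors. The windows hold the 150 bases before the start on the plus strand: Gbp2 at chr3:142620513-142620662, Igtp at chr11:58199406-58199555 and Irgm2 at chr11:58214827-58214976, with the match in capitals.
Gbp2: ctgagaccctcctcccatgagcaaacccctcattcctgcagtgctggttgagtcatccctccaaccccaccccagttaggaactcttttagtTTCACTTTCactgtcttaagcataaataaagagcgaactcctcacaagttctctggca
Igtp: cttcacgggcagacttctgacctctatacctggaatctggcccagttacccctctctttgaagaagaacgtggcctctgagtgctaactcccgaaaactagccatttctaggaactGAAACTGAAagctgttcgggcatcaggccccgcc
Irgm2: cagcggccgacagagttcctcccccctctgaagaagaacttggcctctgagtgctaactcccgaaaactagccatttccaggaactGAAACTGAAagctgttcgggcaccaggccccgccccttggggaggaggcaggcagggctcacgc
The letters searched were GAAANNGAA, on both strands, and the match in Gbp2 is on the minus strand, so it reads as the reverse complement. It began 58, 34 and 64 bases before the start in Gbp2, Igtp and Irgm2. The motif was in the 250 bases before the start of 9 of the 9 GTPase genes with a promoter, of 9 of 17 interferon-stimulated genes (52.9%) and of 705 of the 11271 tested genes (6.25%). It was in 7.10% of the genes higher and 5.77% of those lower with DSS. The Igtp and Irgm2 windows are nearly identical around the match, so the 9 GTPase genes are not all separate occurrences of the motif. The 9 also include a gene that did not pass as higher with DSS. None of the matches printed here overlaps a match to the kappaB-like motif.

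Other interferon-stimulated genes, of the antiviral kind, rose in 12 of 25 tested, with none lower and a median of 0.65. Zbp1, a sensor of nucleic acids, was at 8.28, 10.6, 8.82 and 13.4 CPM without DSS and at 62.6, 76.6, 36.2 and 24.1 CPM with DSS. It did not overlap between the groups (log2 fold change 2.27 ± 0.33 SE, adjusted p = 0.000151). Oas2, which makes oligoadenylates in response to double-stranded RNA, rose with a log2 fold change of 2.61 ± 0.49 SE, adjusted p = 0.0008898. Ifit1, a translation inhibitor of viral RNA, was at 6.88, 8.16, 9.13 and 17.2 CPM without DSS and at 20.8, 16.95, 5.98 and 8.54 CPM with DSS. The groups overlapped, DSS replicates 2 and 4 lay within the untreated range and DSS replicate 3 below it, and the difference did not pass (0.33 ± 0.44 SE, adjusted p = 0.557). In control wall 23 of the 25 rose, with a median of 1.52. None of the 25 passed the test of the difference between genotypes, and for Ifit1 the unadjusted p of that test was 0.00316.

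Of 15 class I antigen presentation genes 8 rose and none fell, among them Psmb8, an immunoproteasome subunit (0.69 ± 0.20 SE, adjusted p = 0.0115), and Tap2, a chain of the peptide transporter (0.81 ± 0.14 SE, adjusted p = 0.000593). The class I heavy chain gene H2-K1 did not pass (-0.08 ± 0.18 SE, adjusted p = 0.741). None of 11 class II genes passed, although the fitted change of each was above 0 (median 0.25). The difference between the 2 lists was not tested. H2-Ab1, a class II chain, was at 116, 151, 138 and 76.3 CPM without DSS and at 161, 171, 103 and 143 CPM with DSS. These ranges overlapped widely. Of 21 pattern receptor and inflammasome genes 7 rose and 2 fell. Nlrp3, the sensor of an inflammasome, rose with a log2 fold change of 2.46 ± 0.60 SE, adjusted p = 0.00452, and Gsdmd, whose cleaved product forms pores, with 0.96 ± 0.18 SE, adjusted p = 0.000851. Of the pattern receptors and inflammasome, 0 fell without DSS replicate 1, or untreated replicate 2, and 1 fell without DSS replicate 2, or untreated replicate 4.

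Complement genes rose in 14 of 17 tested, with none lower and a median of 1.30. C3, on which all complement routes meet, was at 129, 75.5, 68.96 and 22.9 CPM without DSS and at 846, 718, 285 and 366 CPM with DSS. The lowest DSS library was above the highest untreated one (log2 fold change 2.90 ± 0.51 SE, adjusted p = 0.000578). C4b of the classical route (2.30 ± 0.33 SE, adjusted p = 0.000133) rose as well, and Cfb, of the alternative route, also rose (0.48 ± 0.14 SE, adjusted p = 0.0116). Of 19 antimicrobial and epithelial defence genes 9 rose and 2 fell. Duox2, the hydrogen peroxide producing oxidase of the epithelial surface (mm10 chr2:122280437-122298165), was at 40.6, 29.7, 38.5 and 64.7 CPM without DSS and at 334, 505, 255 and 82.6 CPM with DSS. DSS replicate 4 was the lowest DSS library and still above the untreated range (log2 fold change 2.76 ± 0.44 SE, adjusted p = 0.000291). Its maturation factor gene Duoxa2 rose (2.48 ± 0.37 SE, adjusted p = 0.000196), as did the inducible nitric oxide synthase gene Nos2 (3.63 ± 0.47 SE, adjusted p = 8.26e-05). Slpi, an inhibitor of neutrophil proteases, was at 10.8, 7.32, 6.301 and 9.93 CPM without DSS and at 229, 252, 97.7 and 159 CPM with DSS. Its groups lay far apart (log2 fold change 4.43 ± 0.51 SE, adjusted p = 5.15e-05). The 2 genes that fell belong to another oxidase: Nox1 was at 16.6, 9.77, 10.1 and 22.3 CPM without DSS and at 2.698, 0.431, 1.58 and 0.278 CPM with DSS, and its activator gene Noxa1 fell with it (log2 fold changes -3.50 ± 0.93 SE, adjusted p = 0.00732 and -1.08 ± 0.27 SE, adjusted p = 0.00467). The bactericidal lectin gene Reg3g did not pass (1.73 ± 0.92 SE, adjusted p = 0.142).

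**Figure D2:**
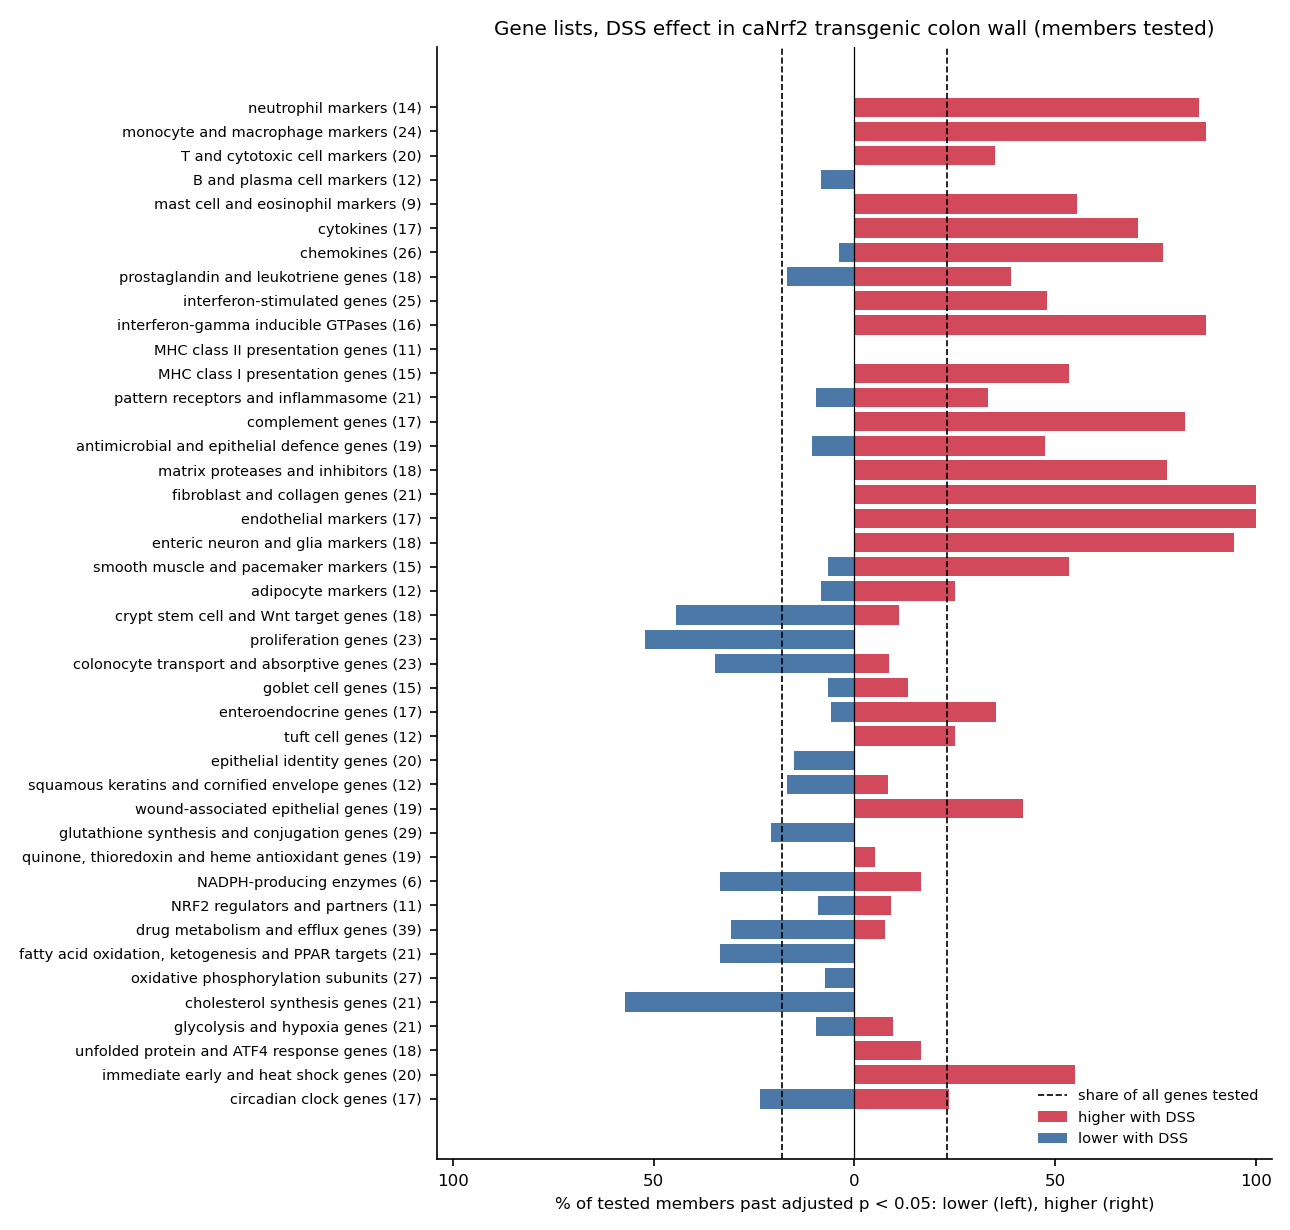
Share of the tested members of each of 42 gene lists that passed an adjusted p below 0.05, higher with DSS to the right (red) and lower to the left (blue), in percent; dashed lines mark the shares of all genes tested (23.1% and 18.1%), and the number tested is in parentheses. All 21 fibroblast and collagen genes and all 17 endothelial markers rose, and cholesterol synthesis genes (12 of 21) and proliferation genes (12 of 23) had the highest shares of lower members.

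All 21 fibroblast and collagen genes passed as higher, with log2 fold changes from 0.93 to 1.61 and no overlap between the groups for any of them. Col1a1, the main chain of fibrillar collagen (mm10 chr11:94936270-94951856), was at 99.6, 104, 147 and 147 CPM without DSS and at 392, 407, 228 and 214 CPM with DSS. DSS replicates 1 and 2 were above replicates 3 and 4 (log2 fold change 1.32 ± 0.23 SE, adjusted p = 0.000505). Lum, a small proteoglycan of the matrix, rose with a log2 fold change of 1.60 ± 0.18 SE, adjusted p = 5.00e-05, and Col4a1 of basement membranes with 1.60 ± 0.19 SE, adjusted p = 5.49e-05. The counts of these 21 genes stood at 21 whichever of the 8 libraries was left out. Of 18 matrix proteases and inhibitors 14 rose and none fell. Mmp10, a stromelysin, was at 0.855, 0.711, 1.496 and 0.418 CPM without DSS and at 94.7, 7.696, 2.53 and 12.7 CPM with DSS. DSS replicate 1 held most of this level, and all DSS libraries lay above the untreated ones (log2 fold change 5.14 ± 1.33 SE, adjusted p = 0.00637). Timp1, an inhibitor of such proteases, rose (2.74 ± 0.54 SE, adjusted p = 0.001200), as did Adamts4, a protease of proteoglycans (4.94 ± 0.80 SE, adjusted p = 0.000326).

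All 17 endothelial markers rose, with a median of 1.29, and this number too stood whichever library was left out. Pecam1, the adhesion molecule of endothelial junctions, was at 51.02, 44.2, 40.6 and 33.8 CPM without DSS and at 100.3, 115, 89.9 and 94.3 CPM with DSS. Each group was narrow and the 2 did not overlap (log2 fold change 1.24 ± 0.15 SE, adjusted p = 6.23e-05). The angiopoietin receptor gene Tek rose with a log2 fold change of 1.79 ± 0.21 SE, adjusted p = 5.15e-05. Enteric neuron and glia markers rose in 17 of 18 tested, with a median of 1.23. Tac1, the precursor of substance P, was at 16.4, 14.2, 12.4 and 9.41 CPM without DSS and at 87.7, 86.1, 37.2 and 50.2 CPM with DSS. It did not overlap (log2 fold change 2.32 ± 0.28 SE, adjusted p = 5.33e-05). The neuronal nitric oxide synthase gene Nos1 (2.20 ± 0.32 SE, adjusted p = 0.0001704) and the glial regulator gene Sox10 (1.38 ± 0.30 SE, adjusted p = 0.00234) rose too. Of 15 smooth muscle and pacemaker markers 8 rose and 1 fell. Myh11 rose (0.93 ± 0.30 SE, adjusted p = 0.0223), Acta2 did not pass (0.46 ± 0.32 SE, adjusted p = 0.254), and the gene that fell was Ano1, the chloride channel of pacemaker cells (-1.12 ± 0.26 SE, adjusted p = 0.00356). A further pacemaker cell marker of the list was among those that rose, so Ano1 alone does not stand for these cells. The call of Myh11 was lost without DSS replicate 2 or 4, or untreated replicate 1 or 2, at log2 fold changes of 0.75 to 0.91. Of the smooth muscle and pacemaker markers, 5 rose without untreated replicate 2. Among 12 adipocyte markers 3 rose and 1 fell. Adipoq, the fat cell hormone adiponectin, was at 11.02, 1.48, 1.46 and 0.234 CPM without DSS and at 9.89, 16.5, 23.2 and 26.9 CPM with DSS. Untreated replicate 1 lay within the DSS range and the difference did not pass (2.50 ± 1.21 SE, adjusted p = 0.109). Of the adipocyte markers, 1 rose without DSS replicate 2, or untreated replicate 2, and 11 rose without untreated replicate 1.

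The libraries of isolated epithelial cells of control mice, which play no part in the contrast, were used to sort genes by where they are found. Of 13763 genes at or above 1 TPM in either tissue, 1885 were at least 2-fold lower in epithelial cells than in untreated control wall. Of these, 57.8% rose and 6.53% fell with DSS in transgenic wall, with a median log2 fold change of 0.91. Of the 819 genes at least 2-fold higher in epithelial cells, 19.9% rose and 24.9% fell, with a median of -0.08. Genes within 2-fold rose in 13.7% and fell in 22.3%. Over all 13763 genes 20.1% rose and 20.3% fell, with a median of -0.05. Across these 13763 genes, which are not independent replicates, the log2 ratio of epithelial cells to wall and the DSS log2 fold change had a Pearson r of -0.3. Whether the higher stromal and immune lists reflect a changed share of cell types in the samples was not tested.

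**Figure D3:**
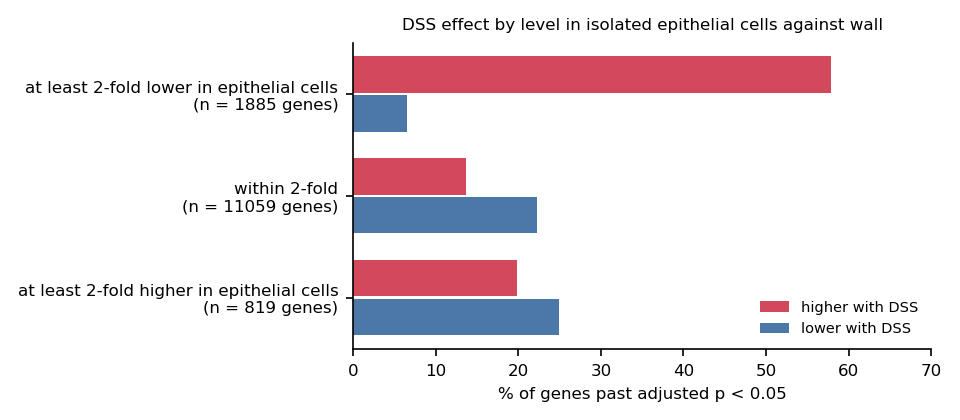
Percent of genes higher (red) or lower (blue) with DSS in transgenic wall at an adjusted p below 0.05, for 3 classes of genes set by their mean TPM in isolated control epithelial cells against untreated control wall. Genes at least 2-fold lower in epithelial cells rose in 57.8% and fell in 6.53%, against 20.1% and 20.3% of all 13763 genes sorted.

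Of 18 crypt stem cell and Wnt target genes 8 fell, 2 rose and 8 did not pass, with a median of -0.39. Lgr5, the receptor that marks crypt base stem cells (mm10 chr10:115450314-115587780), was at 10.4, 9.63, 9.67 and 5.93 CPM without DSS and at 0.553, 0.697, 0.267 and 0.437 CPM with DSS. Every DSS library was below 1 CPM and no untreated library came near that level (log2 fold change -4.19 ± 0.31 SE, adjusted p = 6.41e-07). Ascl2, the transcription factor of these cells, was at 8.46, 7.597, 8.18 and 9.09 CPM without DSS and at 0.346, 0.166, 0.0729 and 0.0795 CPM with DSS. It was among the 12 largest decreases (log2 fold change -5.56 ± 0.45 SE, adjusted p = 1.83e-06). Axin2, a feedback inhibitor of Wnt signalling, fell (-2.27 ± 0.26 SE, adjusted p = 5.15e-05), whereas a further feedback inhibitor gene, Nkd1, rose (1.55 ± 0.26 SE, adjusted p = 0.000462), as did the RNA-binding protein gene Msi1 (1.49 ± 0.34 SE, adjusted p = 0.00274). For these 5 genes the control wall values were -4.04, -5.58, -2.59, 1.08 and 1.22 on the log2 scale, and no unadjusted p of the difference was below 0.217.

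Of 23 proliferation genes tested, 12 fell and none rose, and all 23 had a fitted change below 0, with a median of -1.42. Mcm7, a helicase subunit of DNA replication, was at 50.4, 53.2, 49.9 and 44.2 CPM without DSS and at 31.2, 21.96, 13.3 and 18.5 CPM with DSS. The groups did not overlap (log2 fold change -1.22 ± 0.19 SE, adjusted p = 0.000235). Pcna, the sliding clamp, fell too (-0.79 ± 0.13 SE, adjusted p = 0.000307), and so did Mcm6 (-1.57 ± 0.28 SE, adjusted p = 0.0006403). Mki67, the marker of cycling cells (mm10 chr7:135689788-135716379), was at 184, 198, 159 and 164 CPM without DSS and at 182, 34.3, 27.1 and 10.1 CPM with DSS. DSS replicate 1 was at the untreated level and the other 3 were far below it, so the difference did not pass (log2 fold change -1.48 ± 0.70 SE, adjusted p = 0.101). The mitotic cyclin gene Ccnb1 had the same order of libraries (-1.56 ± 0.69 SE, adjusted p = 0.0798). The summed level of the 23 genes was 918 CPM in DSS replicate 1, from 236 to 329 CPM in the other DSS libraries and from 943 to 1081 CPM without DSS. Of the proliferation genes, 21 fell without DSS replicate 1.

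**Figure D4:**
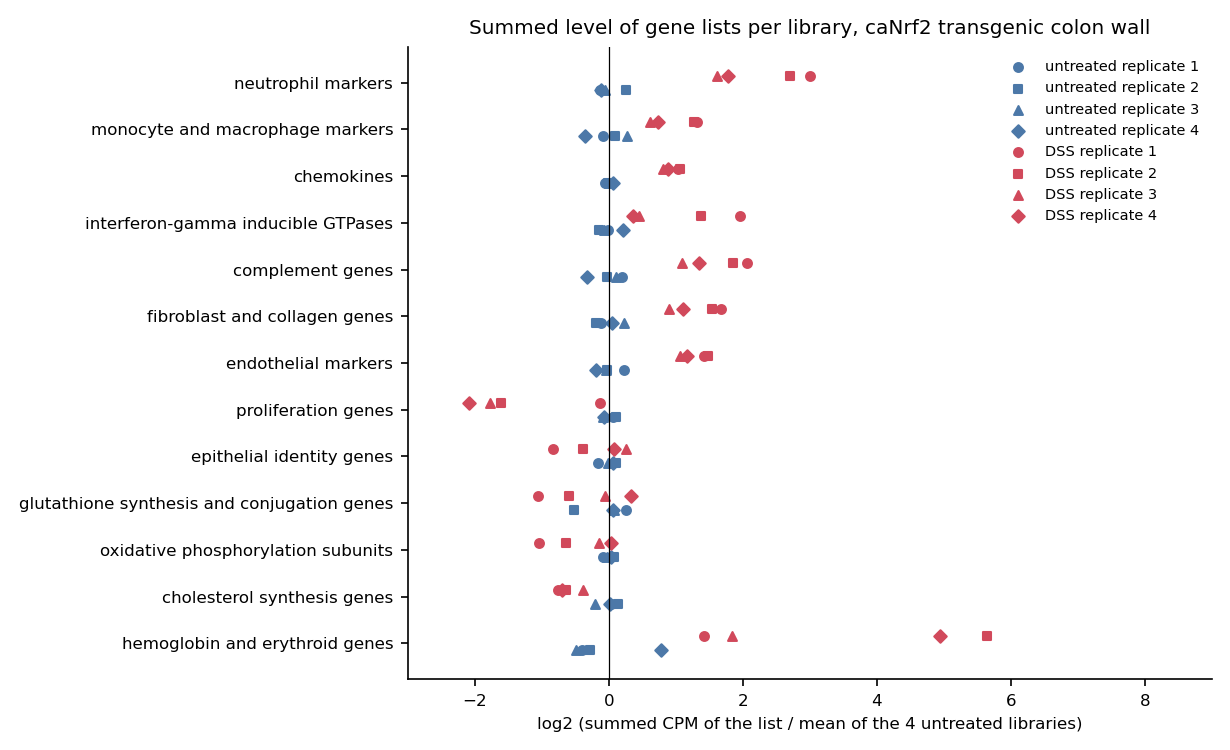
Summed CPM of 13 gene lists in each of the 8 transgenic wall libraries, as the log2 ratio to the mean of the 4 untreated libraries (blue; DSS red; the marker shape gives the replicate). The 4 DSS libraries moved together for fibroblast and endothelial genes, while DSS replicate 1 kept the untreated level of proliferation genes and had the lowest sums of epithelial identity, glutathione and oxidative phosphorylation genes.

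Of 23 colonocyte transport genes 8 fell and 2 rose. Of the colonocyte transport and absorptive genes, 1 rose without DSS replicate 2 or 3, or untreated replicate 1, 2, 3 or 4. Cftr, the chloride channel of crypt secretion, was at 85.2, 102, 99.8 and 97.8 CPM without DSS and at 32.4, 19.5, 23.9 and 19.8 CPM with DSS. The groups did not overlap (log2 fold change -2.01 ± 0.37 SE, adjusted p = 0.0007199). Slc12a2, which loads crypt cells with chloride, fell (-1.18 ± 0.23 SE, adjusted p = 0.00106), and so did Guca2b, the precursor of the peptide uroguanylin (-1.69 ± 0.38 SE, adjusted p = 0.00258). Slc26a3, the chloride and bicarbonate exchanger of surface cells, was at 1084, 1208, 1628 and 913 CPM without DSS and at 255, 676, 703 and 773 CPM with DSS. DSS replicate 1 was the lowest (log2 fold change -1.01 ± 0.30 SE, adjusted p = 0.0152). The call of Slc26a3 was lost without untreated replicate 3, at a log2 fold change of -0.83. The water channel gene Aqp4 rose (1.84 ± 0.42 SE, adjusted p = 0.00313), and the carbonic anhydrase gene Car1 did not pass (-0.22 ± 0.39 SE, adjusted p = 0.673). Of 20 epithelial identity genes 3 fell and none rose. The claudin gene Cldn15 (-1.96 ± 0.36 SE, adjusted p = 0.000715) and the intestinal transcription factor gene Cdx1 (-0.74 ± 0.19 SE, adjusted p = 0.00647) were among them. Of the epithelial identity genes, 5 fell without DSS replicate 3. Epcam was at 1565, 1760.1, 1533 and 1724 CPM without DSS and at 892, 1119, 1523 and 1425 CPM with DSS. It did not overlap, yet it missed the threshold (-0.41 ± 0.19 SE, adjusted p = 0.0884).

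Of 15 goblet cell genes 2 rose and 1 fell. Of the goblet cell genes, 1 rose without DSS replicate 2. Of the goblet cell genes, 0 fell without DSS replicate 1 or 2, or untreated replicate 1 or 2, 2 fell without DSS replicate 4, and 3 fell without DSS replicate 3. Fcgbp, a mucus layer protein, rose (0.90 ± 0.24 SE, adjusted p = 0.00737), Klk1, a tissue kallikrein, fell (-1.03 ± 0.36 SE, adjusted p = 0.0314), and the trefoil peptide gene Tff3 did not pass (0.44 ± 0.37 SE, adjusted p = 0.354). The call of Klk1 was lost without DSS replicate 1 or 2, or untreated replicate 1 or 2, at log2 fold changes of -1.04 to -0.79. Of 17 enteroendocrine genes 6 rose and 1 fell. Gcg, the precursor of glucagon-like peptides, was at 36.5, 27.8, 22.8 and 20.7 CPM without DSS and at 111, 97.6, 48.1 and 41.5 CPM with DSS. Its groups did not overlap (log2 fold change 1.47 ± 0.42 SE, adjusted p = 0.0113). The gene that fell was Neurog3, which starts this lineage, at 1.03, 1.51, 0.891 and 2.04 CPM without DSS and at 0.807, 0.0332, 0 and 0.0397 CPM with DSS. DSS replicate 1 was near the untreated range and the other 3 were close to 0 (-2.52 ± 0.95 SE, adjusted p = 0.0432). The call of Neurog3 was lost without DSS replicate 2, 3 or 4, or untreated replicate 1, 2, 3 or 4, at log2 fold changes of -2.68 to -2.09. Of the enteroendocrine genes, 3 rose without DSS replicate 1. Of the enteroendocrine genes, 0 fell without DSS replicate 2, 3 or 4, or untreated replicate 1, 2, 3 or 4. Of 12 tuft cell genes 3 rose. Dclk1 rose (0.75 ± 0.26 SE, adjusted p = 0.0283) and Trpm5, the taste channel of tuft cells, did not pass (-0.35 ± 0.31 SE, adjusted p = 0.384). The call of Dclk1 was lost without DSS replicate 1 or 2, or untreated replicate 2 or 4, at log2 fold changes of 0.50 to 0.73. Of the tuft cell genes, 1 rose without DSS replicate 1 or 2, or untreated replicate 2 or 4.

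Genes known from wound epithelium rose in 8 of 19 tested, with none lower and a median of 1.14. Ly6a, which encodes the surface protein Sca-1 and is high in regenerating crypts, was at 224, 228, 209 and 298 CPM without DSS and at 1070.4, 1693, 1014 and 986 CPM with DSS. Every DSS library was above every untreated one and DSS replicate 2 was the highest (log2 fold change 2.31 ± 0.24 SE, adjusted p = 2.75e-05). Ereg, a growth factor of the EGF family, was at 2.02, 2.200, 2.45 and 5.700 CPM without DSS and at 178, 22.4, 19.1 and 47.04 CPM with DSS. DSS replicate 1 again stood above the others (log2 fold change 4.41 ± 1.03 SE, adjusted p = 0.00344). Anxa1 did not pass (0.49 ± 0.21 SE, adjusted p = 0.0686). Of the wound-associated epithelial genes, 5 rose without DSS replicate 1, or untreated replicate 2. Ly6a is also known in endothelial cells and leukocytes, whose lists rose in the same libraries, and their part in its level was not tested. Among 12 squamous keratin and cornified envelope genes 1 rose and 2 fell. Krt13 rose (3.26 ± 0.86 SE, adjusted p = 0.00692) and Lor, of the cornified envelope, fell (-2.41 ± 0.58 SE, adjusted p = 0.00412), both at levels below 4 CPM. Of the squamous keratins and cornified envelope genes, 1 fell without DSS replicate 3, or untreated replicate 1 or 2.

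Of 29 glutathione synthesis and conjugation genes none rose and 6 fell, against 23.1% and 18.1% of all genes, with a median of -0.20. Gclc did not pass (log2 fold change 0.28 ± 0.42 SE, adjusted p = 0.613), and without the library labelled untreated replicate 2 its value was -0.06. Slc7a11, which imports cystine, was at 37.2, 4.797, 34.7 and 12.1 CPM without DSS and at 23.4, 22.7, 20.7 and 29.9 CPM with DSS. The DSS libraries were level with each other inside the untreated range (0.13 ± 0.49 SE, adjusted p = 0.848), and without the library labelled untreated replicate 2 its value was -0.21. Gstm2, a glutathione transferase, was at 166, 140.3, 141 and 169.6 CPM without DSS and at 41.00, 61.4, 93.4 and 99.4 CPM with DSS. The highest DSS library was below the lowest untreated one (log2 fold change -1.06 ± 0.28 SE, adjusted p = 0.00734), and Gstm6 fell in the same way (-1.39 ± 0.42 SE, adjusted p = 0.0142); the 2 are close relatives and may share reads. Of the glutathione synthesis and conjugation genes, 2 fell without DSS replicate 2, and 3 fell without DSS replicate 1, or untreated replicate 1 or 3. Of 19 quinone, thioredoxin and heme antioxidant genes 1 rose and none fell. The gene that rose was Sod3, the extracellular superoxide dismutase (1.66 ± 0.23 SE, adjusted p = 0.000117). Nqo1, the quinone reductase, was at 124, 21.4, 106 and 124 CPM without DSS and at 27.03, 50.3, 98.3 and 123 CPM with DSS. DSS replicate 1 and untreated replicate 2 were the lowest of the 8 (-0.33 ± 0.47 SE, adjusted p = 0.599), and without the latter the value was -0.66 (adjusted p = 0.205). Txnrd1 did not pass (0.34 ± 0.22 SE, adjusted p = 0.2102), nor without that library (0.18, adjusted p = 0.524). Of the quinone, thioredoxin and heme antioxidant genes, 3 fell without DSS replicate 4.

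Supply of NADPH was mixed. Of 6 genes Me1, the malic enzyme of the cytosol, rose (0.85 ± 0.31 SE, adjusted p = 0.0348), while Tkt of the pentose phosphate route (-0.62 ± 0.21 SE, adjusted p = 0.0288) and Idh1 (-0.56 ± 0.13 SE, adjusted p = 0.00393) fell, and G6pdx did not pass (-0.29 ± 0.20 SE, adjusted p = 0.242). The call of Me1 was lost without DSS replicate 1 or 4, or untreated replicate 2, 3 or 4, at log2 fold changes of 0.60 to 0.88. The call of Tkt was lost without DSS replicate 1 or 2, or untreated replicate 1 or 3, at log2 fold changes of -0.60 to -0.50. Of 11 NRF2 regulators and partners 1 rose and 1 fell. Of the NRF2 regulators and partners, 0 fell without DSS replicate 1, 2 or 3, or untreated replicate 1 or 2, and 2 fell without DSS replicate 4, or untreated replicate 4. Nfe2l1, a relative of Nfe2l2, was at 195, 197, 215 and 258 CPM without DSS and at 316, 309.8, 328 and 317 CPM with DSS. It did not overlap (log2 fold change 0.55 ± 0.11 SE, adjusted p = 0.001297). Keap1 missed the threshold (-0.28 ± 0.12 SE, adjusted p = 0.0713). Drug metabolism and efflux genes leaned lower, with 12 of 39 down and 3 up. Aldh1b1, a mitochondrial aldehyde dehydrogenase, was at 197, 194, 177 and 224 CPM without DSS and at 49.3, 66.05, 94.96 and 103 CPM with DSS. The groups did not overlap (log2 fold change -1.34 ± 0.18 SE, adjusted p = 0.000113). Cyp2d26 (-2.17 ± 0.38 SE, adjusted p = 0.000539) and the bilirubin transferase gene Ugt1a1 (-1.81 ± 0.33 SE, adjusted p = 0.000662) fell, and the efflux pump gene Abcb1b rose (1.44 ± 0.39 SE, adjusted p = 0.00845). Abcc2, a pump for conjugates and a known NRF2 target, was at 114, 6.21, 105 and 77.8 CPM without DSS and at 25.1, 46.4, 50.01 and 67.7 CPM with DSS. The library labelled untreated replicate 2 was the lowest (-0.68 ± 0.53 SE, adjusted p = 0.319). Without it Abcc2 passed as lower (-1.07, adjusted p = 0.0131 in edgeR's test). Without that library 5 of the 29 glutathione genes and 12 of the 39 drug genes fell and 1 of the 19 quinone, thioredoxin and heme antioxidant genes rose. The summed drug list ran from 2748 CPM in DSS replicate 1 to 7496 CPM in DSS replicate 4, against 7253 to 8108 CPM without DSS.

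Of 21 cholesterol synthesis genes 12 fell and none rose, and all 21 had a fitted change below 0, with a median of -0.67. Idi1, the isomerase of isoprenoid units (mm10 chr13:8885606-8892396), was at 149, 154, 136 and 124 CPM without DSS and at 58.9, 53.7, 62.3 and 54.9 CPM with DSS. The groups were tight and did not overlap (log2 fold change -1.29 ± 0.26 SE, adjusted p = 0.00135). In control wall 9 of the 21 fell, with a median of -0.41. Of 21 fatty acid oxidation, ketogenesis and PPAR target genes 7 fell and none rose. Acaa2, a thiolase of mitochondrial beta-oxidation, fell (-0.82 ± 0.19 SE, adjusted p = 0.00301), and so did Pparg, the nuclear receptor of colonocytes and fat cells, at 97.8, 88.5, 85.4 and 50.9 CPM without DSS and at 31.8, 26.7, 40.8 and 37.1 CPM with DSS (log2 fold change -1.24 ± 0.28 SE, adjusted p = 0.00271). Of the fatty acid oxidation, ketogenesis and PPAR targets, 3 fell without DSS replicate 1 or 2, and 4 fell without untreated replicate 2 or 3. Of 27 oxidative phosphorylation subunits 2 fell and none rose. Of the oxidative phosphorylation subunits, 0 fell without DSS replicate 1 or 2, or untreated replicate 1, 2, 3 or 4, 6 fell without DSS replicate 3, and 21 fell without DSS replicate 4. Atp5a1 did not pass (-0.38 ± 0.20 SE, adjusted p = 0.124).

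Stress genes rose in part. Of 20 immediate early and heat shock genes 11 rose and none fell, with a median of 1.47. Hspa1a, an inducible heat shock protein, was at 18.8, 12.4, 17.2 and 19.5 CPM without DSS and at 38.3, 36.9, 79.9 and 62.5 CPM with DSS. DSS replicates 3 and 4 were the highest (log2 fold change 1.68 ± 0.35 SE, adjusted p = 0.00155). In control wall its log2 fold change was 0.24. The unadjusted p of the difference in edgeR's test was 0.00817, which did not pass after adjustment (0.4698). Control wall means were 44.8 CPM without and 52.8 CPM with DSS, against 16.98 and 54.4 CPM in transgenic wall. Ier3 (2.19 ± 0.48 SE, adjusted p = 0.00219) and Zfp36, which destabilises cytokine messages (1.72 ± 0.38 SE, adjusted p = 0.00239), rose. Of 18 unfolded protein and ATF4 response genes 3 rose. Hspa5, the main chaperone of the endoplasmic reticulum, was at 340.4, 305, 314 and 442 CPM without DSS and at 811, 581, 1228 and 539 CPM with DSS. All DSS libraries lay above the untreated ones (log2 fold change 1.17 ± 0.29 SE, adjusted p = 0.004400). Ddit3 did not pass (0.45 ± 0.21 SE, adjusted p = 0.101). Of the unfolded protein and ATF4 response genes, 1 rose without DSS replicate 1 or 3, or untreated replicate 1, 2 or 3. Of 21 glycolysis and hypoxia genes 2 rose and 2 fell. Hk2, the inducible hexokinase, rose (1.26 ± 0.31 SE, adjusted p = 0.00524), as did Adm, the precursor of adrenomedullin (1.88 ± 0.45 SE, adjusted p = 0.00428), while Pdk1 (-0.84 ± 0.22 SE, adjusted p = 0.00756) and Ndrg1 (-0.86 ± 0.19 SE, adjusted p = 0.00213) fell.

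Circadian clock genes changed in both directions, 4 of 17 higher and 4 lower, shares close to those of all genes (23.1% and 18.1%). Dbp, an output gene of the clock that binds D-box sites, was at 207, 127, 197 and 50.7 CPM without DSS and at 8.42, 17.8, 25.5 and 26.8 CPM with DSS. The DSS libraries were all low and the untreated ones wide, with untreated replicate 4 the lowest of them (log2 fold change -2.89 ± 0.70 SE, adjusted p = 0.004304). Per3, a member of the repressive arm (mm10 chr4:151003655-151044622), was at 65.8, 53.5, 66.1 and 36.8 CPM without DSS and at 13.5, 20.8, 15.7 and 10.5 CPM with DSS. It did not overlap (log2 fold change -1.88 ± 0.32 SE, adjusted p = 0.000433). Nr1d2, a nuclear receptor that represses Arntl, fell (-1.31 ± 0.30 SE, adjusted p = 0.00306). Nfil3, a repressor at the same D-box sites and a factor of cytokine-stimulated lymphoid cells, was at 1.89, 2.47, 1.21 and 2.87 CPM without DSS and at 78.3, 24.6, 18.04 and 40.2 CPM with DSS. Every DSS library was above every untreated library, with DSS replicate 1 the highest (log2 fold change 4.23 ± 0.59 SE, adjusted p = 0.000121). Arntl, the activating partner of the core clock, rose (0.96 ± 0.29 SE, adjusted p = 0.0158), as did Cry1 (0.92 ± 0.31 SE, adjusted p = 0.02704). The call of Arntl was lost without untreated replicate 1, at a log2 fold change of 0.83. The call of Cry1 was lost without DSS replicate 1, or untreated replicate 1, 2 or 4, at log2 fold changes of 0.76 to 0.93. Of the circadian clock genes, 1 rose without untreated replicate 1, and 2 rose without DSS replicate 1, or untreated replicate 2. In control wall the log2 fold changes were -0.37 for Dbp, -0.10 for Per3 and 1.53 for Nfil3. In untreated control wall the means were 26.5, 19.5 and 11.4 CPM in that order, against 145, 55.6 and 2.11 CPM in untreated transgenic wall. With DSS they were 20.8, 18.3 and 32.7 CPM in control and 19.6, 15.1 and 40.3 CPM in transgenic wall. The means of these genes thus lay further apart between the genotypes without DSS than with it. On the log2 scale, the test of the difference in DSS effect is also the test of this. Its unadjusted p in edgeR was 0.0161, 0.000844 and 0.00227 for Dbp, Per3 and Nfil3, and none passed after adjustment (0.521, 0.364 and 0.435). The sources used here give no hour of sampling.

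The promoter of Per3 is shown because Dbp and Nfil3, which are known to act at D-box sites, moved in opposite directions. The window holds 150 bases on the minus strand at chr4:151044756-151044905 of GRCm38.p6, from 240 to 91 bases before the RefSeq start, which lies 43 bases from the deposited one. The capitals mark matches to TTANGTAA.
Per3: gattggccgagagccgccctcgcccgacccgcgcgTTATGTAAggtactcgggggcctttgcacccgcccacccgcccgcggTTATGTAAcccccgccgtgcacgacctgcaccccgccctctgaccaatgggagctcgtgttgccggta
The matches began 205 and 158 bases before the start. Of the 14 clock genes with a RefSeq promoter 1 held this motif on either strand in 250 bases, and so did 147 of 11271 tested genes (1.30%), 0.986% of those higher and 1.81% of those lower with DSS.

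The 12 largest increases and 12 largest decreases with non-overlapping groups and at least 1 CPM in a group were ranked by log2 fold change. Among the increases were Il22, Il6, S100a8, S100a9 and Cxcl2, described above. AI747448 was at 6.25, 7.995, 9.07 and 19.7 CPM without DSS and at 1228, 3456, 502 and 158 CPM with DSS. It was above 150 CPM in every DSS library (log2 fold change 6.95 ± 0.86 SE, adjusted p = 6.47e-05). Wfdc12, of the whey acidic protein family of protease inhibitors, was at 0.04500, 0.0457, 0 and 0.0334 CPM without DSS and at 17.9, 0.398, 0.0972 and 1.55 CPM with DSS. DSS replicate 1 held most of it (log2 fold change 7.05 ± 1.89 SE, adjusted p = 0.00793). The call of Wfdc12 was lost without DSS replicate 1, at a log2 fold change of 4.06. Prss22, a serine protease, rose with a log2 fold change of 6.46 ± 1.15 SE, adjusted p = 0.000626. The decreases were led by genes with low levels after DSS. Otc, an enzyme of the urea cycle, was at 9.897, 8.92, 7.38 and 10.3 CPM without DSS and at 0.0231, 0.0332, 0.195 and 0.119 CPM with DSS. It was near 0 in every DSS library (log2 fold change -6.58 ± 0.92 SE, adjusted p = 0.000122). Pnliprp1, a pancreatic lipase relative, fell (-5.74 ± 0.35 SE, adjusted p = 8.11e-08), as did A4gnt, which adds terminal sugars to gastric-type mucins (-5.40 ± 0.62 SE, adjusted p = 5.15e-05), and Vtcn1, an inhibitory ligand of T cells (-4.63 ± 0.33 SE, adjusted p = 5.17e-07). Cldn2, the claudin of leaky crypt junctions, was at 165, 161, 154 and 235 CPM without DSS and at 14.8, 2.65, 6.56 and 5.32 CPM with DSS. DSS replicate 1 was the highest of the DSS libraries and still far below the untreated range (log2 fold change -4.60 ± 0.82 SE, adjusted p = 0.000614). Fam55b was at 138, 124, 133 and 123 CPM without DSS and at 6.59, 2.75, 3.23 and 5.88 CPM with DSS (log2 fold change -4.81 ± 0.51 SE, adjusted p = 2.75e-05). Cd207, the langerin of a subset of dendritic cells, was at 0.855, 1.68, 1.56 and 0.1003 CPM without DSS and had counts in only DSS replicate 3.

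The same comparison in control wall, with no library in common, was used to ask where transgenic wall differed. In controls 6300 genes passed (39.2%), 3713 higher (23.1%) and 2587 lower (16.1%). Of these genes 4587 passed in both genotypes, which is 69.2% of the transgenic and 72.8% of the control calls, and 4579 of them in the same direction. Across the 16074 genes, which are not independent replicates, the log2 fold changes of the genotypes had a Pearson r of 0.85. The test of the difference itself passed for no gene (0%) in edgeR, with a smallest adjusted p of 0.0685, although 1279 genes had an unadjusted p below 0.05. DESeq2 gave 40 genes and limma voom 113 for this difference. In edgeR, leaving out control untreated replicate 4 gave 93 genes and leaving out transgenic untreated replicate 4 gave 2. The gene with the smallest p was Vgll3, a cofactor of TEAD transcription factors, named here after its values were seen. It was at 1.93, 1.87, 2.26 and 1.99 CPM without DSS and at 7.45, 8.06, 10.5 and 8.700 CPM with DSS. In control wall the means were 4.67 and 6.85 CPM. Its log2 fold change was 2.11 in transgenic and 0.55 in control wall, a difference of 1.56 ± 0.23 SE (adjusted p = 0.0685 in edgeR's test). Since no gene passed that test in edgeR, no DSS effect described here is called particular to transgenic wall.

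**Figure D5:**
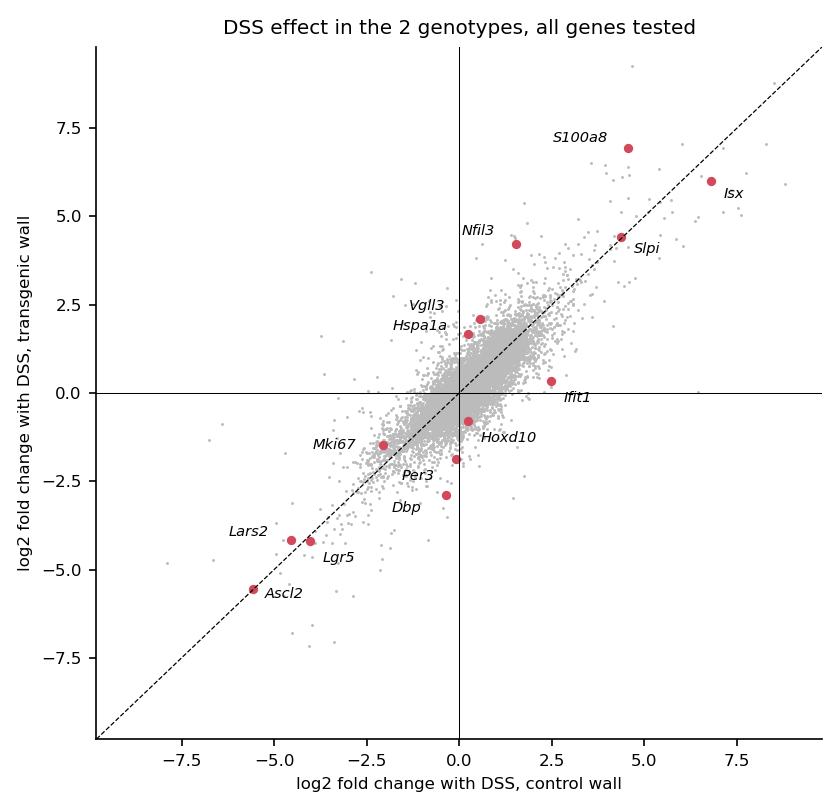
Log2 fold change with DSS in transgenic wall (y axis) against control wall (x axis) for all 16074 genes tested (grey), with 14 named genes in red and equality as a dashed line. Most genes lie along the line (Pearson r 0.85 across genes), and Dbp, Per3, Nfil3, Hspa1a and Vgll3 lie off it, none past an adjusted p of 0.05 for the difference.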

How the data were processed

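The deposited files hold, for 30383 transcripts, an estimated (expected) count, a posterior estimate of it and TPM, per the file headers. RSEM 1.2.11, FastQC and mm10 are named in the submitters' processing notes. Aligner, annotation release and strand setting: not given in the sources used here. Thus it is not known here whether reads of overlapping genes were assigned by strand. The authors' expected counts, 39.2% of them not whole, were summed over each of 23329 gene symbols and rounded. The deposited TPM values served only to sort genes by tissue, with a pseudocount of 1. No 2 libraries of the transgenic wall agreed within sampling noise (lowest chi-square per gene 24).

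The 16 wall libraries were fitted together with edgeR 4.0.16 (R 4.3.3): TMM scaling, filterByExpr by group, the quasi-likelihood F test and Benjamini-Hochberg adjustment over 16074 genes, and the common biological coefficient of variation came to 0.26. The standard error (SE) was taken as |log2 fold change|/sqrt(F). The labels give each library its group, and the series text speaks of 3 replicates where 4 were used. P-values measure the spread between these libraries. The contrasts were DSS in transgenic wall, DSS in control wall and their difference. The steps were run on simulated data in which few genes changed. That run does not cover a change as wide as the one found here. The precision varied with level: the median SE was 0.45 below 1 CPM and 0.18 at or above 100 CPM. The SE and SD include the spread between libraries. The floor for a count of 0 was 3 counts per library and covers counting error only. DESeq2 1.42.0 and limma 3.58.1 gave alternatives, as did other scaling, filters, a replicate block, the deposited posterior estimates and left-out libraries.

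The 42 gene lists and the named genes were chosen with earlier results of these data known. Named were the first 2 genes of a list, the 3 smallest p-values per direction in a list, the 12 largest changes per direction with non-overlapping groups, up to 8 per direction for the genotype difference, Nfe2l2 and Keap1. Some genes that this rule names are not reported here. The 10 exceptions, chosen after their values were seen, were Mpo, Elane, Vgll3, Hba-a1, Isx, Hopx, Lars2, Hoxb4, Hoxd10 and Hoxb13. Promoters came from RefSeq (GRCm38.p6), matched by symbol for 11271 of the tested genes.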

Additional observations from a re-analysis of the deposited data

Results flagged for a closer look

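Among 318 groups of 4 libraries, made by the 159 genes named in the text with and without DSS, 34 held a library far from the other 3 by Dixon's gap ratio. Chance flags about 1 in 20 such groups where values are normally distributed, which CPM need not be, and the genes are not independent of each other. Groups with counts in a single library are always flagged. This held for Elane with and without DSS and for Cd207 with DSS, at 1 or 2 counts, so these flags say nothing about the library. The flagged library was DSS replicate 1 for 14 genes, Elane among them, and untreated replicate 4 for 8. DSS replicate 1 stood apart with 182 CPM for Mki67, 0.0461 CPM for Elane, 55.1 CPM for Il1b, 4.93 CPM for Il22 and 17.6 CPM for Cxcl1. It also did so with 11.3 CPM for Cxcl2, 59.3 CPM for Ptgs2, 4.98 CPM for Nlrp3, 94.7 CPM for Mmp10 and 41.6 CPM for Mcm6. It also did so with 26.2 CPM for Ccnb1, 0.807 CPM for Neurog3, 3.48 CPM for Krt13 and 17.9 CPM for Wfdc12. DSS replicate 2 stood apart with 1693 CPM for Ly6a. DSS replicate 3 stood apart with 0.0243 CPM for Cd207. DSS replicate 4 stood apart with 1211 CPM for H2-K1, 5289 CPM for Acta2 and 149 CPM for Ndrg1. Untreated replicate 1 stood apart with 0 CPM for S100a8, 2830.5 CPM for Acta2 and 11.02 CPM for Adipoq. Untreated replicate 2 stood apart with 0.0131 CPM for Elane, 29.98 CPM for Gbp2 and 0.235 CPM for Msi1. Untreated replicate 3 stood apart with 30.6 CPM for Hoxd10. Untreated replicate 4 stood apart with 2.89 CPM for Il1b, 36.3 CPM for Duoxa2, 23.4 CPM for Lum, 5.700 CPM for Ereg and 235 CPM for Cldn2. It also did so with 47.9 CPM for Hba-a1, 0.819 CPM for Alas2 and 583 CPM for Hoxb13. All results above include these values.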

How the results depend on the processing

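The labels do not say that the replicate numbers pair the libraries. Deviations from the group means of same-numbered transgenic libraries had correlations of 0.07, 0.01, -0.09 and -0.01 for the numbers 1 to 4. For unlike numbers they ran from -0.26 to 0.31. With 4 libraries per group such values cannot exclude a pairing. With a replicate block 6027 genes passed for DSS in transgenic wall, 5546 in control wall and 0 for the difference, and the named calls of Ptgs2, Klk1, Me1 and Tkt were lost. The number of genes past the threshold in transgenic wall ran from 6027 to 9368 over the alternatives that kept all libraries, and 6949 passed without the 4 wall libraries of the second name series (replicate 4 of each group, whose deposited names begin with another number). Leaving out 1 library gave 4975 to 7197 genes in transgenic wall, of which 2910 to 3791 were higher and 2054 to 3500 lower, 4952 to 6782 in control wall and 0 to 93 for the difference. Limma voom gave 4441 lower genes in transgenic wall and 9501 genes in control wall. For the difference, DESeq2 gave 40, limma voom 113 and leaving out the second name series 98 genes, and edgeR gave 0 under the other scalings, filters and count estimates. The causes were not tested. Of 130 named genes that passed, 117 stayed past the threshold in the same direction under every alternative that tested them, and the 5 genes with a reversed sign did not pass in the first place. Nfe2l2 was at -0.01 in limma voom and ran from -0.05 without DSS replicate 3 to 0.23. Gclc was at -0.09 without the second name series and ran from -0.06 without untreated replicate 2 to 0.56. Cdh1 was at 0.04 in limma voom, 0.07 without the second name series, 0.03 without untreated replicate 4 and 0.04 without DSS replicate 1, and at -0.18 at the lowest. Ifit1 ran from -0.03 without DSS replicate 1 to 0.65. Slc7a11 was at -0.23 without the second name series, and at -0.21, -0.11 and -0.02 without untreated replicate 2, untreated replicate 4 and DSS replicate 4, with 0.50 at the highest. Without the second name series the calls of Psmb8, Cry1, Dclk1, Me1 and Neurog3 were lost. Neurog3 was also lost in DESeq2 and without a scaling factor, Ptgs2 in limma voom, and Klk1 and Tkt with only the 8 transgenic wall libraries fitted. Without the second name series, the list counts that moved by over 1.5 times were 4 higher prostaglandin and leukotriene genes, 1 adipocyte, 3 enteroendocrine, 1 tuft cell and 0 NADPH genes, and, among lower members, 1 pattern receptor and inflammasome gene, 0 enteroendocrine, 2 quinone, thioredoxin and heme antioxidant genes, 3 NRF2 regulators and partners and 15 oxidative phosphorylation subunits.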

Other observations

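The genes and lists of this section were chosen after their values were seen. Red cell genes were higher in 2 of the 4 DSS libraries above all. Hba-a1, an alpha chain of hemoglobin, was at 10.9, 11.99, 6.396 and 47.9 CPM without DSS and at 78.5, 1782, 129 and 949.9 CPM with DSS. DSS replicates 2 and 4 stood above DSS replicates 1 and 3, and all 4 lay above the untreated libraries (log2 fold change 5.24 ± 1.54 SE, adjusted p = 0.0129). Alas2, the first enzyme of heme synthesis in red cells, was at 0.2699, 0.189, 0.191 and 0.819 CPM without DSS and at 3.57, 75.9, 4.35 and 28.8 CPM with DSS. It had the same order of DSS libraries (log2 fold change 6.22 ± 1.54 SE, adjusted p = 0.00486). Of 10 tested hemoglobin and erythroid genes 7 rose and 1 fell, in a contrast where 41.2% of all genes passed. Their summed level was 3623 CPM in DSS replicate 2, 2228 CPM in DSS replicate 4, 193 and 259 CPM in DSS replicates 1 and 3, and 51.4 to 124 CPM without DSS.

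Isx, an intestinal homeobox gene that represses vitamin A conversion, was at 0.04500, 0.274, 0.3501 and 0.201 CPM without DSS and at 17.96, 25.6, 8.898 and 8.14 CPM with DSS. Every DSS library was far above the untreated ones (log2 fold change 6.00 ± 0.52 SE, adjusted p = 4.33e-06). Hopx, a homeodomain cofactor found in intestinal stem cells, was at 52.1, 48.6, 35.7 and 49.4 CPM without DSS and at 8.81, 6.104, 7.61 and 10.2 CPM with DSS. It fell in all 4 DSS libraries (log2 fold change -2.50 ± 0.17 SE, adjusted p = 4.46e-07). Lars2, the mitochondrial leucyl-tRNA synthetase, was at 3202, 2103, 1748 and 1861 CPM without DSS and at 128, 128, 99.5 and 138 CPM with DSS. It was among the most abundant genes that fell, and each DSS library lay below 150 CPM (log2 fold change -4.17 ± 0.24 SE, adjusted p = 8.11e-08; in control wall -4.55). Of 29 tested Hox genes, which mark position along the gut, 8 rose and 6 fell, shares close to those of all genes (23.1% and 18.1%). Of the Hox genes, 3 fell without DSS replicate 1 or 2, or untreated replicate 1. Hoxb4, of the anterior kind, was at 1.93, 1.397, 1.05 and 1.54 CPM without DSS and at 6.36, 4.68, 2.19 and 4.05 CPM with DSS (log2 fold change 1.55 ± 0.35 SE, adjusted p = 0.00284). Hoxd10, of the posterior kind, was at 25.8, 26.3, 30.6 and 26.3 CPM without DSS and at 16.2, 13.8, 16.8 and 15.7 CPM with DSS (log2 fold change -0.80 ± 0.25 SE, adjusted p = 0.0166; in control wall 0.23). Hoxb13, expressed in the distal colon, did not pass (-0.25 ± 0.27 SE, adjusted p = 0.464).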
